A study of Mus musculus with 21 samples.

Results

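The 9 genes described here are the hemidesmosome and basal keratin genes in mammary tumors of mice carrying activated Neu: *Krt5*, *Krt14*, *Col17a1*, *Lama3*, *Lamb3*, *Itga6*, *Itgb4*, *Dst* and *Plec*. They were chosen by symbol from the gene names in the deposited table, with earlier results of these data known. They are 9 of the 38730 genes with a read in any tumor, and were all among the 19315 genes that passed the filter on low counts. *Krt5*, *Krt14* and *Col17a1* were under 10 CPM (read counts scaled to library size, with TMM factors) in 11, 10 and 12 of the 21 tumors. Their fold changes therefore rest mainly on the tumors in which they were high.

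A hemidesmosome is the junction that fastens a basal epithelial cell to the basement membrane. Outside the cell, laminin-332 (with the products of *Lama3* and *Lamb3* among its chains) is bound by the integrin α6β4 (*Itga6* and *Itgb4*) and by the transmembrane collagen XVII (*Col17a1*). Inside the cell, the plakins BPAG1-e (a product of *Dst*) and plectin (*Plec*) tie this complex to filaments made of the keratin pair 5 and 14 (*Krt5* and *Krt14*). In the mammary gland these genes mark the basal, myoepithelial layer, and in stratified epithelia the layer that rests on the basement membrane.

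RNA was sequenced from 9 tumors labelled control (the N tumors) and 12 labelled RhoC (the R tumors). All 21 arose in mice carrying FloxNeoNeuNT, an activated Neu cDNA in the *Erbb2* locus behind a loxP-flanked stop. They also carried MMTV-CreNLST, a Cre driven in the mammary gland by the MMTV promoter. The study describes this Cre as apparently expressed in fewer mammary epithelial cells, or less strongly, than that of other MMTV-Cre lines. The RhoC mice also carried R26(RhoC/+), a RhoC-IRES-eGFP cassette in Rosa26 behind a loxP-flanked stop. Of the controls, 7 carried *Gata4*(loxP/+), so that 1 *Gata4* copy was floxed, and the other 2, N-15 and N-17, did not. The mice were virgin females whose age at collection is not in the labels. The control tumors came from 9 mice and the RhoC tumors from 8, with 4 tumors from mouse P497 (R-13, R-14, R-15 and R-16) and 2 from mouse N9255 (R-6 and R-7), so the R tumors were not all independent. The mouse of R-18 is not in its label, and R-21 carries the mouse number that the study's tumor list gives to R-20.

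Histology was taken from that list and not from the sample labels, and is given as a description with no test. R-6, R-13 and R-14 were squamous cell carcinomas (SCC), and N-1 was a spindle cell tumor (SCT). R-7, R-10, R-12, R-16 and N-4 were complex adenocarcinomas (CAC), and N-3, N-6, N-8 and N-15 were poorly differentiated adenocarcinomas (PDA). N-7, N-9 and R-1 were solid nodular carcinomas (SNC), R-2 was a PDA with adenomyoepithelioma (AME), R-15 was an SNC or PDA, and no entry was used for N-17, R-18 and R-21.

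Total counts per tumor were 47552423 to 100741339 in controls and 47309780 to 85326903 in RhoC tumors. The 7 luminal epithelial markers all passed the filter and summed to 1570 to 5930 CPM in controls and 1230 to 3530 CPM in RhoC tumors, so epithelial RNA was present in each tumor. *Rhoc* itself was 25.98 to 172 CPM in controls (median 50.7) and 22.8 to 148 CPM in RhoC tumors (median 88.2). No RhoC tumor exceeded the highest control, so *Rhoc* did not separate the cohorts. *Erbb2* was 57.9 to 2725 CPM in controls (median 1166) and 256 to 1851 CPM in RhoC tumors (median 734). Its lowest value, 57.9 CPM, was in the control N-15. Whether reads of the RhoC cassette were counted under mouse *Rhoc*, or those of the Neu cDNA under *Erbb2*, is not given in the sources used here. The cohort names are used here as the labels give them. In bulk tumors, fewer cells of a type and less RNA per cell cannot be told apart.

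Promoter windows of 250 bases before the annotated start, from the RefSeq table of GRCm38.p6, are shown for *Krt5* and *Col17a1*, whose 4 highest values were both times in the SCC tumors and R-12, and for *Dst*, whose correlation with *Col17a1* did not pass its test. Of the 9 genes, *Dst*, *Lamb3*, *Col17a1*, *Krt5* and *Krt14* were matched in that table. *Dst* has 2 entries, an upstream start and a downstream one that both lie inside the annotated gene, and 20 annotated transcripts, whose reads all enter a single gene count. The windows are on chr15:101712906-101713155 (minus strand) for *Krt5*, chr19:47692043-47692292 (minus) for *Col17a1*, chr1:34011345-34011594 (plus) for the upstream start of *Dst* and chr1:34160010-34160259 (plus) for the downstream one. Capitals mark the letters TGANTCA (AP-1), GCCNNNGGC (AP-2), TATAAA (bound by TBP), GGGCGG (Sp1) or CCAAT (NF-Y), searched on both strands, and no 2 marked motifs overlap.
Krt5: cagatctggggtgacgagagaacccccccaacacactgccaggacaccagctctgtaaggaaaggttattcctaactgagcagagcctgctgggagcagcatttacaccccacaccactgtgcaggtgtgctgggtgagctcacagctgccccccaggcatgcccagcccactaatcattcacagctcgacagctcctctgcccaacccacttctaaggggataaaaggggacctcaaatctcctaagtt
Col17a1: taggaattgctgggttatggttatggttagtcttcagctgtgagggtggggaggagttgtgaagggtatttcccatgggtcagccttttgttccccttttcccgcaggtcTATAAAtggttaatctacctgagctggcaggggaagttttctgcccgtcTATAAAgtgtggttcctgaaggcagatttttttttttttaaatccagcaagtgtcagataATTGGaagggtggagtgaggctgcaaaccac
Dst, upstream start: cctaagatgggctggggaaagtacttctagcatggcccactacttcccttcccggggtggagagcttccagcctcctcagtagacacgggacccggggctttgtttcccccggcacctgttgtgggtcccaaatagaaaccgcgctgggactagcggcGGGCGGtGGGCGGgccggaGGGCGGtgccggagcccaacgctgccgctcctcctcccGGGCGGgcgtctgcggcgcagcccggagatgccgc
Dst, downstream start: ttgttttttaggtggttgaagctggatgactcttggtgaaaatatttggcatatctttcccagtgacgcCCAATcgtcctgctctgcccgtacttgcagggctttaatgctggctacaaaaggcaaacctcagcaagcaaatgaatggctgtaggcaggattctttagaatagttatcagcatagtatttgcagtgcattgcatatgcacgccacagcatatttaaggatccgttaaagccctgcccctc
Of the 32851 windows of this length in the table, 6.75% held TGANTCA, 13.7% GCCNNNGGC, 12.4% TATAAA, 32.7% GGGCGG and 33.8% CCAAT. The *Col17a1* window held TATAAA at 140 and 91 bases before the start and CCAAT on the other strand at 31. The upstream *Dst* window held GGGCGG at 92, 85, 73 and 35 bases before the start, and the downstream one held CCAAT at 181. In the *Krt5* window none of these letters was found. The counts do not tell which of the *Dst* starts was used.

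The comparison of RhoC with control tumors asks whether overexpressed RhoC, added to activated Neu, goes with a different level of these genes. The genes fell into 2 kinds. The keratin pair, *Col17a1* and the laminin chains varied over orders of magnitude among tumors and were at their highest in the SCC tumors, the CAC tumor R-12 and, among controls, the SCT tumor N-1. *Dst*, *Plec*, *Itga6* and *Itgb4* were above 100 CPM in every tumor. The 4 highest values of *Plec* were also in the SCC tumors and R-12. Of these 4 genes, *Dst*, *Itgb4* and *Plec* had higher medians in RhoC tumors, with or without the SCC tumors. No gene of the 9 was called by edgeR's quasi-likelihood test at an adjusted p under 0.05.

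**Figure D1:**
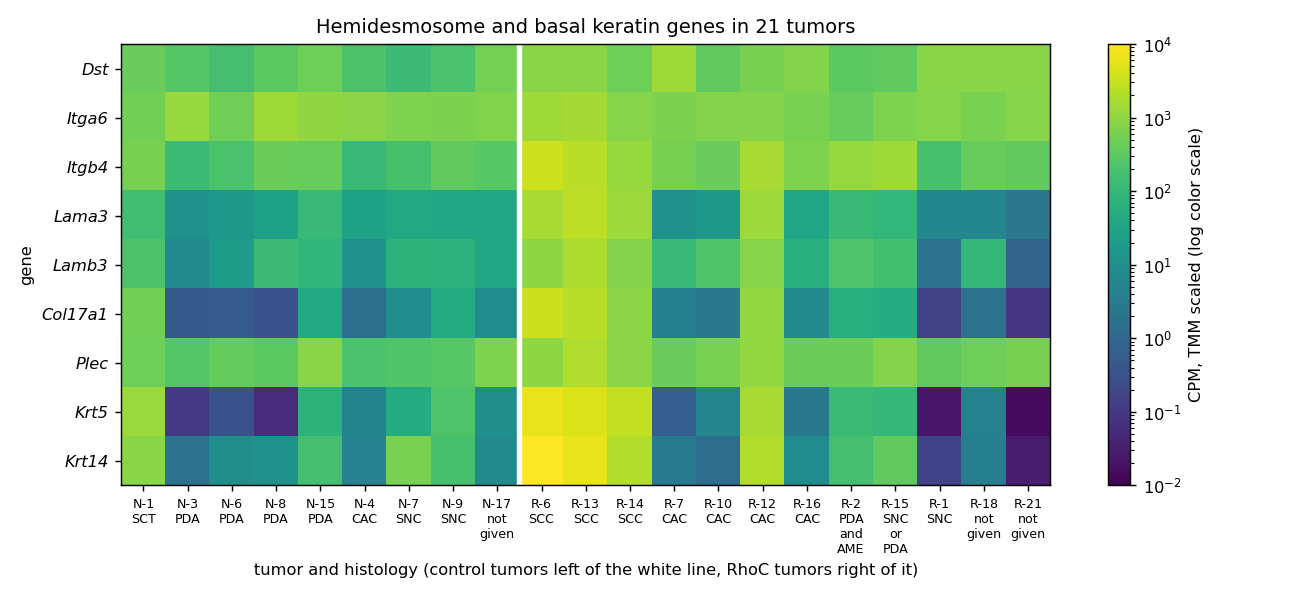
Heat map of the 9 genes (vertical axis) in the 21 tumors (horizontal axis, with histology), colored by TMM-scaled CPM on a log scale. The bright columns for *Krt5*, *Krt14*, *Col17a1*, *Lama3* and *Lamb3* are R-6, R-13, R-14 and R-12, while the rows of *Dst*, *Itga6* and *Plec* stay above 100 CPM in every tumor.

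*Krt5* (ENSMUSG00000061527.7, chr15:101707070-101712898), the type II keratin of basal cells, was 0.0579 CPM at its lowest, 9.81 at the median and 1255 at its highest in controls. In RhoC tumors it was 0.0148, 52.9 and 6276 CPM. Its highest values were 6276, 4853 and 2875 CPM in the SCC tumors R-6, R-13 and R-14, then 1608 in R-12 and 1255 in N-1. The next was the control N-9 at 219.6 CPM, and R-21 and R-1 held 1 and 2 reads of it. The cohorts overlapped over the whole control range, with 6 of 12 RhoC tumors above the control median.

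*Krt14* (ENSMUSG00000045545.8, chr11:100203162-100207548), the type I keratin that pairs with keratin 5, was 1.80, 12.03 and 868 CPM (lowest, median and highest) in controls and 0.0296, 91.3 and 9516 CPM in RhoC tumors. R-6, R-13, R-12 and R-14 had 9516, 6273, 2083 and 1999 CPM, and the highest controls were N-1 at 868 and the SNC tumor N-7 at 606. Again 6 of 12 RhoC tumors were above the control median, and R-21 held 2 reads and R-1 14. The log2 fold change of RhoC over control was 2.88 ± 1.86 (SE) for *Krt5* and 3.05 ± 1.69 for *Krt14*, with edgeR adjusted p of 0.385 and 0.310. Without the 3 SCC tumors these became 0.19 ± 1.73 and 0.50 ± 1.53 (adjusted p = 0.970 and 0.900), and without the SCT control alone they became 4.87 and 3.79. The size of both differences thus depended on these 4 tumors.

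Tumors from the same mouse differed widely in the keratins. In mouse P497, *Krt14* was 6273 and 1999 CPM in the SCC tumors R-13 and R-14, 340.3 in R-15 and 8.35 in the CAC tumor R-16. In mouse N9255 it was 9516 CPM in the SCC tumor R-6 and 2.94 in the CAC tumor R-7. *Col17a1* differed the same way in these mice, at 2427, 905, 51.3 and 7.13 CPM in P497 and at 3349 and 3.83 CPM in N9255. *Dst* did not follow: R-7 had 1432 CPM against 836 in R-6, and R-16 had 754 against 843 in R-13, 469 in R-14 and 345 in R-15.

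*Col17a1* (ENSMUSG00000025064.15, chr19:47646344-47692094), the transmembrane collagen of the junction, was 0.324, 8.23 and 514 CPM in controls and 0.0887, 29.2 and 3349 CPM in RhoC tumors. The SCC tumors held 905 to 3349 CPM, R-12 held 1059, and N-1 was at 514 with the next control at 49.8. Among the other 8 RhoC tumors the highest value was 61.0 CPM, in R-2. The log2 fold change was 3.23 ± 1.71 (edgeR adjusted p = 0.287) and was 0.92 ± 1.57 without the SCC tumors, 5.54 ± 1.89 without N-1 and 3.23 ± 1.62 without all 4. Its size therefore depended on which of these 4 tumors entered the fit.

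*Lama3* (ENSMUSG00000024421.16, chr18:12333819-12583013), the α3 chain of laminin-332, was 10.9, 36.9 and 148 CPM in controls and 2.41, 62.3 and 2476 CPM in RhoC tumors. The SCC tumors were at 1295 to 2476 CPM and R-12 at 1326, and each of the other 8 RhoC tumors lay at or below 118 CPM, inside or below the control range. The RhoC tumors R-1, R-18 and R-21 were lower than every control, at 5.99, 6.11 and 2.41 CPM. *Lamb3* (ENSMUSG00000026639.18, chr1:193207725-193343878), the β3 chain, was 7.44, 71.8 and 214 CPM in controls and 0.916, 187 and 1860 CPM in RhoC tumors. Here 9 of 12 RhoC tumors were above the control median, and R-2 and R-10 exceeded the highest control beside R-12 and the SCC tumors. The log2 fold changes were 3.52 ± 1.16 for *Lama3* and 2.57 ± 0.94 for *Lamb3* (edgeR adjusted p = 0.118 and 0.144), and 1.81 ± 1.02 and 1.37 ± 0.87 without the SCC tumors (0.397 and 0.454). On those 18 tumors DESeq2 gave -0.52 for *Lama3* (adjusted p = 0.708), the opposite sign to its 3.54 with all 21. DESeq2 by default replaces counts it flags as outliers, so its estimate may not use every count as deposited. Whether it replaced that of R-12, at 1326 CPM the highest of the 18, was not recorded. In limma's voom fit with a random effect for the mouse, *Lama3* and *Lamb3* were at 0.61 ± 1.29 and 1.02 ± 1.23 (adjusted p = 0.870 and 0.747).

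The summed level of squamous keratinocyte markers was also highest in the SCC tumors. Of the 9 such markers, 5 passed the filter. The sum of all 9 was 2110 to 7780 CPM in the SCC tumors, 1232 in R-12, 1576 in N-1 and 849 in N-15. Over the cohorts it ranged from 16.97 to 1580 CPM in controls (median 37.2) and from 4.02 to 7780 CPM in RhoC tumors (median 45.9). Most of the sum was *Krt6a* and *Dsg3*, at 4610 and 3003 CPM in R-6, while *Lor* was under 1 CPM in every tumor and *Ivl* reached 29.1 CPM at most. *Krt10* and *Krt1*, keratins of the suprabasal epidermis, were low in the SCC tumors. *Krt10* was 1.09 to 2.21 CPM in the SCC tumors, against 285 in N-1 and 44.5 in N-7, and *Krt1* was at most 1.92 CPM in the SCC tumors, against 45.6 in N-1. The 7 myoepithelial and smooth muscle markers all passed the filter and summed to 63.5 to 277 CPM in controls (median 179) and 79.2 to 458 CPM in RhoC tumors (median 254), with 127 to 297 in the SCC tumors. The part of either cell type in these results was not tested.

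**Figure D2:**
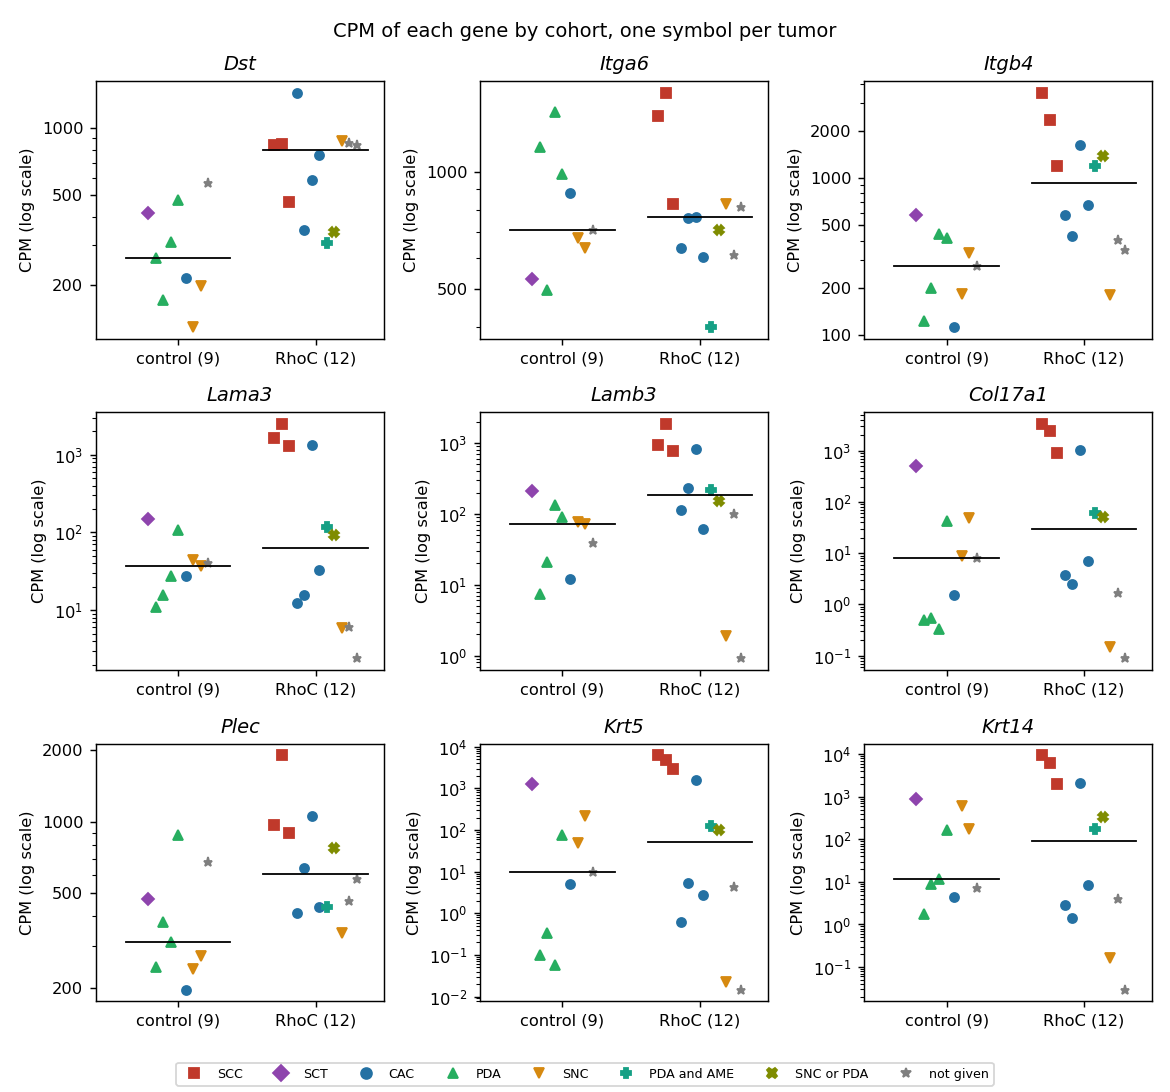
CPM of each gene (log axis) in the 9 control and 12 RhoC tumors, 1 symbol per tumor with its shape and color giving the histology, and a line at each cohort's median. All 12 RhoC tumors lie above the control median for *Dst* and *Plec* and 11 of 12 for *Itgb4*, whereas *Krt5*, *Krt14* and *Col17a1* have 6 of 12 above it.

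*Itgb4* (ENSMUSG00000020758.15, chr11:115974709-116008412), the β4 integrin chain whose long cytoplasmic tail binds plectin, was 112, 276 and 584 CPM in controls and 181, 934 and 3510 CPM in RhoC tumors. Of the 12 RhoC tumors, 11 were above the control median and 7 above the highest control, N-1. These 7 were the 3 SCC tumors (1193 to 3510 CPM), R-12 at 1619, R-15 at 1382, R-2 at 1188 and R-16 at 679. R-1 was the exception at 181 CPM, and no control reached the RhoC median. The log2 fold change was 1.96 ± 0.48 with an edgeR adjusted p of 0.0606, and without N-15 alone it was 2.04 (0.0471), in a fit that called 346 genes in all in place of 43. Without the SCC tumors it was 1.35 ± 0.42 (adjusted p = 0.162), and in the fit with 1 summed library per mouse 1.602 ± 0.460 (0.209).

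*Itga6* (ENSMUSG00000027111.16, chr2:71745616-71858416), the α6 chain that pairs with β4 and also with β1, was 499.5, 711 and 1417 CPM in controls and 401, 764 and 1589 CPM in RhoC tumors. R-13, R-6 and the control N-8 were highest, at 1589, 1387 and 1417 CPM, and the cohorts overlapped throughout. The log2 fold change was -0.01 ± 0.24 (edgeR adjusted p = 0.985), and -0.29 ± 0.21 without the SCC tumors (0.507). Its highest value was 3.96 times its lowest, the narrowest span of the 9 genes, against 31.3 times for *Itgb4*.

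*Dst* (ENSMUSG00000026131.20, chr1:33908225-34308661), which encodes BPAG1-e along with larger neuronal and muscle forms, was 130 CPM at its lowest in controls, 262 at the median and 569 at its highest. In RhoC tumors it was 309, 795 and 1432 CPM. All 12 RhoC tumors were above the control median and 8 above the highest control, and no control reached the RhoC median. The highest value, 1432 CPM, was in the CAC tumor R-7, and R-1, R-18 and R-21, which were lowest in *Lama3*, held 869.6, 856 and 836 CPM. The log2 fold change of 1.21 ± 0.30 (edgeR adjusted p = 0.0688) was 1.20 ± 0.33 without the SCC tumors (0.137) and 1.15 ± 0.32 per mouse (0.201). Against the 7 *Gata4*(loxP/+) controls alone it was 1.54 ± 0.31 with an adjusted p of 0.0261, and without N-15 it was 1.31 (0.0436).

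*Plec* (ENSMUSG00000022565.15, chr15:76170974-76232570), the plakin that links β4 integrin to keratin filaments, was 197, 313 and 879 CPM in controls and 341, 606 and 1909 CPM in RhoC tumors. All 12 RhoC tumors were above the control median, but the controls N-15 and N-17, at 879 and 676 CPM, were above the RhoC median. The 4 highest values were in R-13, R-12, R-6 and R-14, at 1909, 1058, 966 and 894 CPM. The log2 fold change was 0.86 ± 0.33 (edgeR adjusted p = 0.158), 0.48 ± 0.30 without the SCC tumors (0.438) and 1.29 ± 0.32 against the 7 *Gata4*(loxP/+) controls (0.0422). The controls left out of that last fit, N-15 and N-17, had the highest control values of both *Plec* and *Dst*.

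Muscle and nerve are known to express other forms of *Dst* and *Plec*, so markers of skeletal muscle and Schwann cells were set beside these genes. The 6 skeletal muscle markers, of which 2 passed the filter, summed to 0.609 to 4170 CPM in controls (median 1.19) and 0.473 to 644 CPM in RhoC tumors (median 0.917), and N-17, the highest control in *Dst*, had the 4170. Without N-17 the *Dst* log2 fold change was 1.37. The 3 Schwann cell markers used here (*Sox10*, *Mbp* and *Prx*) all passed and summed to 242 to 557 CPM in controls (median 384) and 70.9 to 737 CPM in RhoC tumors (median 385), with the highest sum in R-7. Most of that sum was *Sox10*, at 689.8 CPM in R-7, where *Mbp* and *Prx* were 40.3 and 7.27 CPM. *Sox10* was 3.87 CPM in R-6, 17.4 in R-13 and at least 102.7 in every other tumor. The sum therefore need not measure Schwann cells. The part of muscle or Schwann cells in the *Dst* level was not tested. In the annotation, 1493 of the 41155 exonic bases of *Dst* also lie in antisense transcripts, and whether the counting used strand is not given in the sources used here.

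Over the 9 genes, edgeR called 0 at an adjusted p under 0.05, beside 0.0932% of the 19315 genes tested that were called higher in RhoC tumors. At an unadjusted p under 0.05, 5 of 9 were higher (*Dst*, *Itgb4*, *Lama3*, *Lamb3* and *Plec*), beside 10.5% of all genes. DESeq2 called 4 of 9 (*Dst*, *Itgb4*, *Lama3* and *Lamb3*), beside 3.66% of all genes. The 9 genes were listed with earlier results of these tumors known. The study itself reported *Dst* as significantly altered and *Itgb4*, *Lama3* and *Lamb3* among the raised genes, so these shares are no independent test. A voom fit in limma, with a random effect for the mouse, called 0 of 9. It called 3 of all genes, and 0 of these were higher. The fit against the 7 *Gata4*(loxP/+) controls called 2 of 9 (*Dst* and *Plec*), beside 1.03%, and that without N-15 called 2 of 9 (*Dst* and *Itgb4*), beside 0.884%. The former leaves out N-15 and N-17, the controls that like the RhoC tumors carry no floxed *Gata4*, so that RhoC and the *Gata4* allele cannot be told apart in it. The median log2 fold change of the 9 genes was 2.57, that of all genes tested -0.00524, and 8 of 9 were above 0. In the voom fit the median was 0.80, with 7 of 9 above 0.

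Without the SCC tumors, edgeR called 0 of 9, beside 0.0578% of 19046 genes called higher. At an unadjusted p under 0.05, 2 of 9 were higher (*Dst* and *Itgb4*), beside 8.06%, and DESeq2 called these 2 genes, beside 1.74%. The median log2 fold change was 0.92 in edgeR, in place of 2.57, and 0.15 in DESeq2, where 5 of 9 were above 0 and 4 below. DESeq2 by default replaces outlying counts, and which ones it replaced here was not recorded. *Lama3*, *Lamb3* and *Plec* were past the unadjusted threshold in the fit on 21 tumors and not in the one on 18, a change that was not itself tested. Whether the effect of RhoC differed between SCC and other tumors was not tested, since none of the 8 controls with a histology was an SCC.

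**Figure D3:**
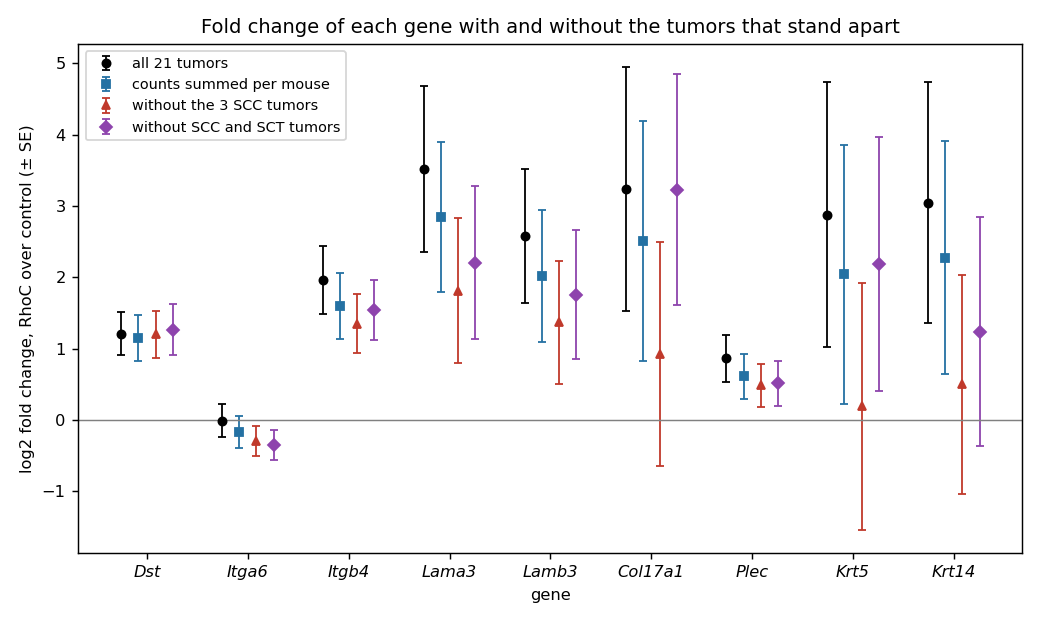
Log2 fold change of RhoC over control (vertical axis, with its SE) for each gene in 4 edgeR fits: all 21 tumors, counts summed per mouse, without the 3 SCC tumors, and without these and the SCT control. The 4 estimates of *Dst* lie between 1.15 and 1.27, whereas those of *Krt5* run from 0.19 to 2.88 with SEs over 1.7.

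By histology, R-12 stood apart from the other 3 RhoC CAC tumors in the keratins. *Krt14* was 1.38, 2.94 and 8.35 CPM in R-10, R-7 and R-16 and 2083 in R-12. The CAC control N-4 was at 4.47 CPM. For *Dst* the same 4 tumors held 349.6, 1432, 754 and 583 CPM and N-4 held 214, and for *Itgb4* they held 427, 579, 679 and 1619 CPM and N-4 held 112. In both genes each RhoC CAC tumor was above the single CAC control. The 4 PDA controls held 0.101, 0.332, 0.0579 and 75.1 CPM of *Krt5* in N-3, N-6, N-8 and N-15, and R-2, the PDA with AME, held 122.

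The chains that pair in a filament or an integrin were compared as the log2 ratio of their CPM in each tumor. These are ratios of read counts, not per length, so they compare tumors and not the 2 genes. The *Itgb4* to *Itga6* ratio was -3.23, -1.37 and 0.14 (lowest, median and highest) in controls and -2.19, 0.35 and 1.57 in RhoC tumors. In 11 of 12 RhoC tumors it was above the control median, and R-1, at -2.19, was the exception. The mean was 0.10 ± 1.14 (SD, n = 12) in RhoC tumors and -1.61 ± 1.02 (SD, n = 9) in controls. The difference of 1.72 had p = 0.00261 in a two-sided exact permutation test over 293930 labelings, and 0.00784 after adjustment over the 3 ratios. It was 1.48 without the SCC tumors (exact permutation p = 0.0140, adjusted 0.0421). With 1 mean per mouse it was also 1.48, with an exact permutation p of 0.0188 and an adjusted p of 0.0563, which is past the threshold only before adjustment.

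The *Krt5* to *Krt14* ratio averaged -0.59 ± 1.15 (SD, n = 12) in RhoC tumors and -2.08 ± 2.78 (SD, n = 9) in controls, a difference of 1.49 (exact permutation p = 0.108, adjusted 0.162), which became 0.87 without N-8. The controls N-3, N-6, N-7 and N-8 had ratios of -3.78, -4.65, -3.61 and -7.07, the lowest of the controls, and no RhoC tumor was below -2.19. The ratios were taken after an average prior count of 2 was added to each gene. In N-8 this rested on 1040 reads of *Krt14* and 5 of *Krt5*. The values of R-1 and R-21 rest on 2 and 1 reads of *Krt5* and carry little information. The *Lamb3* to *Lama3* ratio differed by 0.34 (exact permutation p = 0.648, adjusted 0.648). It was 3.20, 3.90 and 4.02 in R-7, R-10 and R-18, above the highest control at 2.26, and between -0.80 and -0.41 in the SCC tumors.

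**Figure D4:**
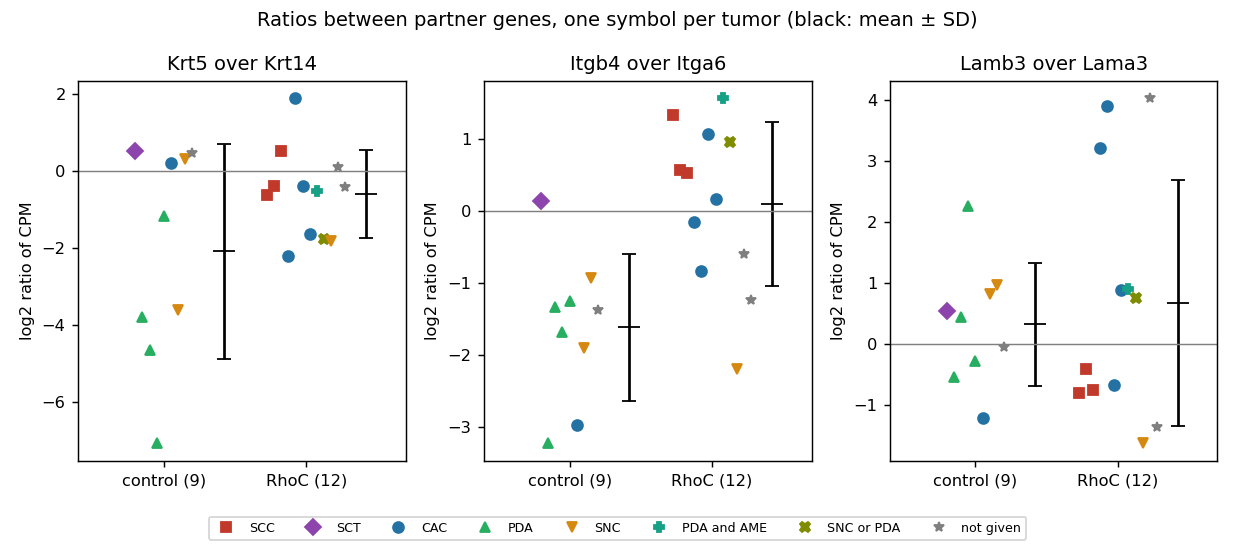
Log2 ratio of CPM between paired genes (vertical axis) in 9 control and 12 RhoC tumors, 1 symbol per tumor by histology, with the mean and SD in black. For *Itgb4* over *Itga6* the controls average -1.61 and the RhoC tumors 0.10, with the RhoC tumor R-1, at -2.19, below the control median and the control N-1, at 0.14, the highest of its cohort.

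Across the 21 tumors, 7 pairs of genes were correlated on the log2 CPM scale, with p from 100000 permutations adjusted over the 7. The tumors share mice (4 from P497 and 2 from N9255), and the permutations treat them as independent. *Krt5* and *Krt14* gave Pearson r = 0.93 (adjusted permutation p = 4.67e-05) and Spearman rho = 0.88 (7e-05). Their r was 0.91 without R-6 and R-13, the 2 tumors farthest from the *Krt5* median, 0.98 within the RhoC tumors, 0.84 within the controls and 0.89 without the SCC tumors. *Lama3* and *Lamb3* gave r = 0.83 and rho = 0.76 (adjusted permutation p = 4.67e-05 and 0.00028), with r = 0.78 without the 2 farthest tumors, 0.84 and 0.79 within the cohorts and 0.74 without the SCC tumors. The smallest p these permutations can give is 1e-05.

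*Itgb4* went with *Col17a1* (r = 0.80, rho = 0.75, adjusted permutation p = 5.25e-05 and 0.00028) and with *Plec* (r = 0.80, rho = 0.77, 4.67e-05 and 0.000245). Without the 2 farthest tumors r was 0.70 and 0.73, and without the SCC tumors 0.65 and 0.70. Within cohorts, *Itgb4* and *Col17a1* gave r = 0.95 over the 12 RhoC tumors and 0.61 over the 9 controls, and *Itgb4* and *Plec* gave 0.77 and 0.62. The integrin partners were different: *Itga6* and *Itgb4* gave r = 0.185 and rho = 0.065 (adjusted permutation p = 0.592 and 0.780), with r = 0.15 without the 2 farthest tumors, 0.43 in RhoC tumors, -0.10 in controls and -0.34 without the SCC tumors.

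*Dst* was paired with *Col17a1* and *Krt14* alone, and neither pair passed the test. With *Col17a1* it gave r = 0.136 and rho = 0.070 (adjusted permutation p = 0.596 and 0.780), and with *Krt14* r = -0.12 and rho = -0.14 (0.596 and 0.780). Without R-7 and N-7, the 2 tumors farthest from the *Dst* median, these r were 0.197 and 0.031. Within the cohorts they were -0.22 and 0.35 for *Col17a1* and -0.26 and -0.050 for *Krt14* (RhoC and control), and without the SCC tumors -0.087 and -0.41. R-1, R-7 and R-21, with *Krt14* between 0.0296 and 2.94 CPM, were among the tumors highest in *Dst*. R-13 and R-6, the highest in *Krt14*, were also high in it, at 843 and 836 CPM, and R-10, with *Krt14* at 1.38, was at 349.6 CPM.

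**Figure D5:**
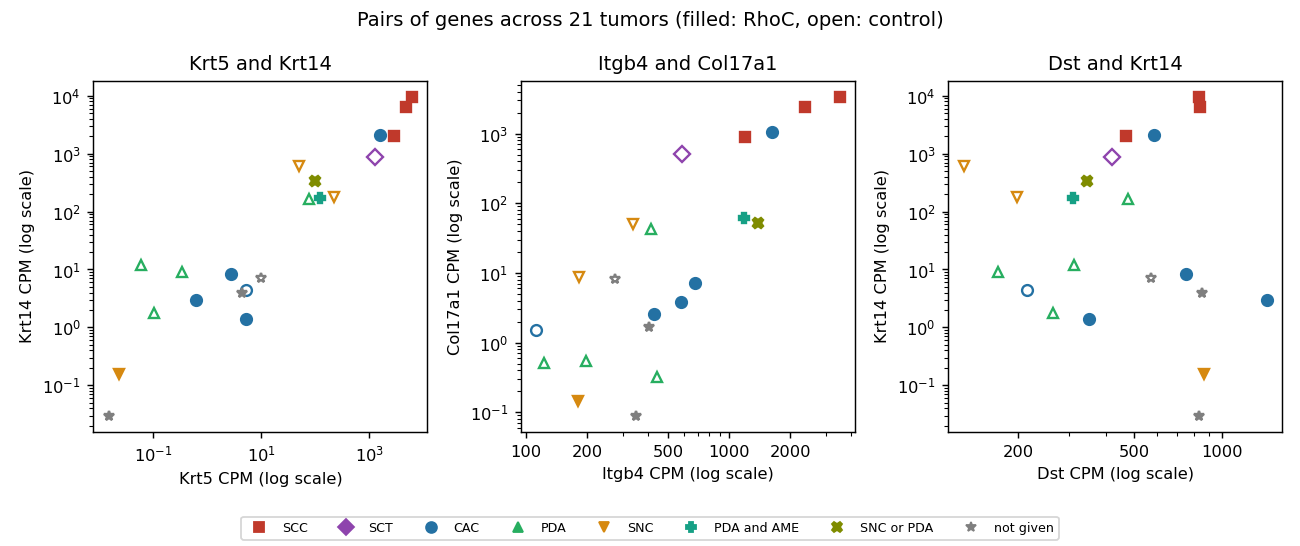
CPM of 3 pairs of genes (both axes log) across 21 tumors, filled symbols for RhoC and open symbols for control tumors, shaped and colored by histology. *Krt5* and *Krt14* rise together (r = 0.93) and so do *Itgb4* and *Col17a1* (r = 0.80), whereas *Dst* and *Krt14* show no such line (r = -0.12).

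To compare levels between genes, the deposited FPKM, which the authors scaled to gene length and library size, were used. By median over the 21 tumors the order was *Itga6* at 81.2 FPKM, *Itgb4* at 59.6, *Plec* at 26.1, *Lamb3* at 17.9, *Dst* at 13.1, *Krt14* at 6.85, *Krt5* at 4.36, *Lama3* at 3.37 and *Col17a1* at 1.33. Neighbours in this order overlapped across tumors in every case. The order differed by cohort. In RhoC tumors the highest medians were *Itgb4* at 132 FPKM, *Itga6* at 82.3, *Krt14* at 51.4 and *Plec* at 33.6, and in controls *Itga6* at 75.9, *Itgb4* at 38.4 and *Plec* at 17.7, with *Krt14* at 6.85. *Itga6* ranked first in 10 tumors, *Krt14* in 5 (N-7, N-9, R-6, R-12 and R-13), *Itgb4* in 4 and *Krt5* in 2 (N-1 and R-14). In the SCC tumors the medians were 3630 FPKM for *Krt14*, 2250 for *Krt5*, 410 for *Col17a1*, 341 for *Itgb4*, 154 for *Itga6* and 23.8 for *Dst*. Without them, *Krt5* and *Lama3* exchanged places, at 2.34 and 2.81 FPKM.

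Of 9 further genes of the junction and the basal layer, all passed the filter and edgeR called 0 between cohorts, beside 0.0932% of all genes called higher. At an unadjusted p under 0.05, 3 were higher in RhoC tumors (*Col7a1*, *Itga3* and *Fermt1*), beside the 10.5% of all genes, and 1 lower (*Erbin*), beside 9.93%. Without the SCC tumors 0 of the 9 had an unadjusted p under 0.05 in edgeR, beside 8.06% of all genes that were higher at that threshold. In that fit *Col7a1* was at 1.03 and *Itga3* at 0.69 on the log2 scale. *Col7a1*, the anchoring fibril collagen, had a log2 fold change of 2.52 ± 0.91 (edgeR adjusted p = 0.141), and *Itga3*, the α chain of the other laminin-332 integrin, had 1.90 (0.127). *Fermt1*, which encodes the integrin activator kindlin-1, had 1.40 (0.208). *Erbin*, a binding partner of β4 integrin and of *Erbb2*, had -0.35 (0.214), and its highest value was 989.7 CPM in N-4. *Itgb1* and the tetraspanin *Cd151* had 0.15 and 0.04, values that changed sign without the SCC tumors. *Trp63*, which encodes the basal transcription factor p63, and the keratins *Krt17* and *Krt15* had 1.37, 0.25 and -1.89 (0.485, 0.928 and 0.393), and without N-1 alone *Trp63* was 2.64. DESeq2 called *Col7a1* and *Itga3*, beside 3.66% of all genes called higher. The median over the 9 genes was 0.25.

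The genes whose pattern across the 21 tumors was most like the average of the 9 (mean of their standardized log2 CPM, Spearman rho, 10131 genes with mean log2 CPM over 3) were *Fst* at rho = 0.90, *Col7a1* at 0.89, *Pim1* at 0.87, *Fgfr2* at 0.86 and *Itga2* at 0.86. Those most like *Krt14* alone were *Krt17* at 0.96, *Foxq1* and *Sfn* at 0.93, *Col7a1* at 0.92 and *Hmga1b* at 0.91. Of the 10131 genes, 31 reached a rho of 0.8 with the average and 29 with *Krt14*. Of the 100-base stretches of *Krt14*, 2.78% also occur in *Krt16*, and 3.81% of those of *Krt5* occur elsewhere, *Krt6a* included. Only uniquely mapping reads were counted, so some reads from such stretches may be missing from the counts.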

How the data were processed

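RNA of 21 mouse mammary tumors was sequenced from ribosome-depleted stranded libraries. Per the labels, the submitters' processing notes and the methods of the study, the authors trimmed reads with Trim Galore 0.5.0, aligned them to GRCm38.p6 with STAR 2.6.0c and counted uniquely mapping reads with HTSeq 0.6.1p2. The deposited counts are raw whole numbers per gene for each tumor. The deposited FPKM values, scaled by the authors, were used only to order levels between genes. The fold changes and p-values of the authors' own comparisons were deposited too and were not used. The strand setting and the annotation release are not given in the sources used here.

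Counts were scaled by TMM and filtered with filterByExpr, and the cohorts were compared with edgeR 4.0.16 (quasi-likelihood test, Benjamini-Hochberg adjustment over all genes tested, adjusted p under 0.05) in R 4.3.3. Log2 CPM used a prior count of 2. Ratios were tested by exact permutation of the tumor labels, and correlations by 100000 permutations, in Python 3.11.15 with numpy 2.4.6. Alternatives included DESeq2 1.42.0 (with its default replacement of outlying counts), limma 3.58.1 (voom with mouse as a random effect, consensus correlation 0.27) and counts per mouse. Fits without the SCC tumors, the SCT tumor, mouse P497 or each tumor in turn were also run. DESeq2 and the counts per mouse, each without the SCC tumors, were added after seeing the data. The tests were run on simulated data beforehand. Named genes were the 9 listed, 9 partner genes, and the 5 genes most like the average of the 9 and most like *Krt14*. 1 partner gene and 2 markers of the lists are not reported here. The members and lists were chosen with earlier results of these data known. Tumors of 1 mouse are not independent animals, and p-values over tumors measure the spread between these tumors.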

Additional observations from a re-analysis of the deposited data

Results flagged for a closer look

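In the spindle cell tumor N-1, 2 genes stood far from the other 8 controls on the raw CPM scale. *Krt5* was 1255 CPM there against 219.6 in the next control, N-9, a gap of 0.825 of the control range. *Col17a1* was 514 CPM against 49.8 in N-9, a gap of 0.904 of the range. Of 12 quantities examined (the CPM of the 9 genes and the 3 log2 ratios), these 2 passed Dixon's 95% critical value for 9 samples. Its chance rate of about 1 in 20 assumes normally distributed values. That rate does not hold for raw CPM that span orders of magnitude, and the log2 CPM were not examined. The RhoC cohort, with 12 tumors, is too large for Dixon's rule and was not examined. Without N-1 the log2 fold change was 4.87 for *Krt5* and 5.54 for *Col17a1*, against 2.88 and 3.23 with it.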

How the results depend on the processing

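DESeq2 called 4 of the 9 genes in place of 0, *Dst* (1.21), *Itgb4* (1.97), *Lama3* (3.54) and *Lamb3* (2.59), as log2 fold changes, and of all genes it called 1206 against edgeR's 43. Against the 7 *Gata4*(loxP/+) controls 2 were called, *Dst* (1.54) and *Plec* (1.29), of 438 genes in all, and without the SCC tumors DESeq2 called 2, *Dst* (1.20) and *Itgb4* (1.34). Leaving out each tumor in turn gave 0 to 2 called, with 1.07 to 1.37 for *Dst*, 1.67 to 2.15 for *Itgb4* and -0.14 to 0.12 for *Itga6*. The 2 calls came without N-15, the tumor lowest in *Erbb2*, at adjusted p = 0.0436 for *Dst* and 0.0471 for *Itgb4*. That fit called 346 genes in all. With 1 mean per mouse the *Itgb4* to *Itga6* ratio differed by 1.48 (adjusted p = 0.0563), and leaving out single tumors gave 1.51 to 1.94 (adjusted p 0.0013 to 0.0187). Genes called in all were 3 with counts per mouse, 3 without mouse P497, 19 without the SCT tumor, 8 without SCC and SCT tumors, 27 with library size, 26 without the SCC tumors and 3 with voom.

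Signs changed for several uncalled values. *Itga6* was 0.0022 without the filter. Without the SCC tumors DESeq2, with its default replacement of outlying counts, gave -0.52 for *Lama3*, -0.56 for *Krt5* and -1.63 for *Krt14*. With all 21 tumors, voom gave -0.78 for *Krt14*. Without the SCC tumors, the correlation of *Itga6* and *Itgb4* was -0.343 and that of *Dst* and *Col17a1* -0.0874. Of the partners, DESeq2 gave 0.35 for *Krt15*. *Cd151* was -0.12 per mouse, -0.0014 without the SCC tumors, -0.028 without the SCT tumor, -0.069 without both, -0.17 without P497, -0.078 per mouse without SCC and -0.0095 by DESeq2 without SCC. *Itgb1* was, under the same settings other than the SCT one, -0.11, -0.13, -0.21, -0.13, -0.19 and -0.14. *Krt17* was -0.0082 with library size, -0.53 per mouse, -1.90 with voom, -0.0032 with the *Gata4*(loxP/+) controls, -1.58 without SCC, -1.25 without both, -0.59 without P497, -1.50 per mouse without SCC and -1.59 by DESeq2 without SCC. *Trp63* was -0.16, -0.018 and -0.17 in these fits without SCC (tumors, per mouse and DESeq2). Leaving out single tumors gave -0.048 to 0.18 for *Cd151*, -0.0086 to 0.36 for *Itgb1*, -2.80 to 0.27 for *Krt15* and -0.22 to 1.11 for *Krt17*. The cause was not tested.

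Tumor numbers shared by the cohorts (1, 6, 7 and 15) did not pair tumors, since deviations of same-numbered tumors correlated at -0.237, -0.185, -0.00294 and 0.0217. With the replicate block, only tumors whose number occurs in both cohorts inform the fold change. EdgeR then called 0 genes (531 higher and 832 lower at an unadjusted p under 0.05). Signs changed for *Itga6* (0.38), *Lama3* (-0.83), *Col17a1* (-0.46), *Krt5* (-2.88) and *Krt14* (-3.28), and for the partners *Krt17* (-4.37) and *Trp63* (-1.77). *Dst*, *Itgb4*, *Lamb3* and *Plec* stayed above 0, at 1.60, 1.57, 0.60 and 0.37. Depth limits the values of *Krt5* and *Krt14* in R-21 and of *Krt5* in R-1, which rest on 1 or 2 reads.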

Other observations

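*Trp63* and *Krt15*, basal genes outside the junction, did not follow the keratin pair in each tumor. *Trp63* was highest in R-6, R-13, N-1, R-14 and R-12, at 867, 477, 415, 338 and 272 CPM. These were also the tumors highest in *Krt5* and *Krt14*. *Trp63*, which encodes p63, was 98.0 CPM (6631 reads) in R-21, where *Krt5* and *Krt14* had 1 and 2 reads, and 92.2 CPM in N-7 and 97.3 in N-9, where *Krt14* was 606 and 177 CPM. Gene counts do not tell the forms of p63 apart. *Krt15*, another basal keratin, was highest in N-7 at 65.8 CPM and next in R-14 at 15.2, and stayed below 9 CPM in every other tumor.

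*Krt13*, a keratin of differentiating stratified epithelium, was highest in the SCC tumor R-14 at 7.32 CPM, with 1.44 in the SCC tumor R-6 and at most 0.567 in each of the others. *Krt6a*, a keratin of activated keratinocytes, was 4610, 2235 and 794 CPM in the SCC tumors R-6, R-13 and R-14, 530 in the PDA control N-15, 363 in the CAC tumor R-12 and 327 in N-1. These genes were picked from the marker lists after their values were seen.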
